A study of Mus musculus with 5 samples.

Results

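The genes described here encode the oligosaccharyltransferase, the translocon channel and the main chaperones of the endoplasmic reticulum (ER). They are 10 of the 50867 genes in a table of read counts from Ba/F3 cells: RPN1, RPN2, DDOST, STT3A, STT3B, SEC61A1, HSPA5, HSP90B1, CALR and CANX. The members were chosen by name, and RPN2 was selected on its own counts, for being near 0 in a single library. Its level in that library is therefore a description and supports nothing. Earlier results on the whole table were known when the other members were picked, so their levels are given as descriptions too.

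Ba/F3, a mouse pro-B line, needs interleukin-3 to grow, and all 5 cultures carried a lentivirus for their construct. Each culture gave 1 library of total RNA, labelled by its construct: PMSCV (the name of a retroviral vector, used here as the reference), S_PXT1, S_PXT1_K118R, WT and WT_K118R. K118R names a lysine to arginine substitution, and the labels do not spell out S or WT. No library has a replicate, so no test was made between groups, and every interval below is a 95% interval that covers counting error only.

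Proteins bound for the cell surface or for secretion enter the ER through the Sec61 channel, whose pore is SEC61A1. As they emerge, the oligosaccharyltransferase moves a preassembled sugar tree from a lipid carrier onto asparagines. STT3A and STT3B are its alternative catalytic subunits, STT3A acting at the translocon during synthesis and STT3B acting also afterwards, while RPN1, RPN2 and DDOST are shared subunits. The new chain is then folded by the Hsp70 chaperone HSPA5 (BiP), the Hsp90 chaperone HSP90B1 (GRP94) and the lectin chaperones CALR and CANX, which bind trimmed glycans. When unfolded proteins gather in the ER, the unfolded protein response induces many of these genes through the ER stress response element, a CCAAT box followed at a fixed distance by CCACG.

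That element was found in the promoters of the chaperone members and not in those of the oligosaccharyltransferase members, and the matches are shown for this reason. It was searched as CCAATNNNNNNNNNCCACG on both strands of RefSeq promoter windows of the mouse genome (GRCm38.p6, 250 bases before to 50 after each start). The windows matched 9 of the 10 members by symbol, and SEC61A1 had none. A match was found for Hspa5, Hsp90b1, Calr and Canx, with 2 in Hsp90b1, and in 0.119% of all 32851 windows (39 windows). The lines give each match in capitals on the strand of the gene, with 30 bases on either side.
Hspa5, chr2:34771995-34772073, plus strand: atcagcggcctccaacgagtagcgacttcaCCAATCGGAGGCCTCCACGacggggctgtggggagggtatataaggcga
Hsp90b1, chr10:86705608-86705686, minus strand: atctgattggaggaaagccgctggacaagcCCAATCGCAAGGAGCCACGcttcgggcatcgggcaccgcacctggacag
Hsp90b1, chr10:86705503-86705581, minus strand: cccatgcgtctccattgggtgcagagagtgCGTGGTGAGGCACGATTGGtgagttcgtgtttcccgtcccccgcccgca
Calr, chr8:84847045-84847123, minus strand: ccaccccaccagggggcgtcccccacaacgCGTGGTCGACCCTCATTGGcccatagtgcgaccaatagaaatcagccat
Canx, chr11:50325770-50325848, minus strand: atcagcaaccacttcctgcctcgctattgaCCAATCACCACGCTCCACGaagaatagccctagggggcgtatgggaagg

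The second Hsp90b1 match and the Calr match read in the opposite direction to the gene, so their capitals show the reverse complement of the motif. The match starts 65 bases before the start of Hspa5, 145 before Canx, 162 before Calr, and 212 and 107 before Hsp90b1. No match was found in the windows of Rpn1, Rpn2, Ddost, Stt3a and Stt3b, which says only that these letters are not there. All 9 matched members held a CCAAT box, which lies within the element and was present in 37.4% of all windows. The promoter of Rpn2, the gene whose counts stand out below, is shown over the 180 bases before its first start, with 2 CCAAT boxes in capitals.
Rpn2, chr2:157278918-157279097, plus strand: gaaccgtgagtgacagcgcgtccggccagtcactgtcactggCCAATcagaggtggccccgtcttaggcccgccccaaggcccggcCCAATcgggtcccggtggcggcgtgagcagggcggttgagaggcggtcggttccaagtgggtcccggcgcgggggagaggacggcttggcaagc

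The libraries were shallow, with 250409 to 351693 counts in total, so that a single count stood for 2.92 to 3.93 CPM (counts scaled to a common library size by the trimmed mean of M values, TMM). A count of 0 allows up to 3 counts. S_PXT1 and S_PXT1_K118R stood apart from the rest: they held 7393 and 7044 genes with a count, against 11492 to 11712 in the other 3. PXT1, named in the construct labels, had 0 counts in all 5 libraries. Of the B-lineage markers, CD79A, CD79B, VPREB1 and IGLL1 had 0 counts in all 5 libraries, MS4A1 had 2 counts and EBF1 had 1 in PMSCV alone, and PAX5 had 1 with S_PXT1 alone, so these markers of the labelled cell type were at or near 0. Of 8 leukocyte markers, SPI1 supplied 113 to 173 counts in 4 libraries and 1 with WT_K118R, and none of the other 7 passed 6 counts in any library. The table lists human gene models for mouse cells, and levels are compared between libraries, not between genes.

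Marker sums of other tissues were lowest in both S_PXT1 libraries, but the plasma cell and epithelial sums also differed widely among the other 3. A plasma cell list, of a secretory cell type rich in ER proteins, summed to 2379 CPM in PMSCV, 1322 with WT and 154 with WT_K118R, but to 54.6 with S_PXT1 and 35.4 with S_PXT1_K118R. Of its 8 genes, IGHG1, IGHG2 and IGKC supplied most counts in PMSCV and WT, XBP1 supplied 10 of 14 counts with S_PXT1 and 6 of 9 with S_PXT1_K118R, and 4 and 5 genes were at 0 with S_PXT1 and S_PXT1_K118R. XBP1 in the plasma cell list is also a factor of the unfolded protein response. The 9 epithelial markers, among them KRT5 and KLK3, summed to 1106, 2933 and 1334 CPM in PMSCV, WT and WT_K118R, and all 9 were at 0 in both S_PXT1 libraries. The 8 fibroblast and smooth muscle markers summed to 1766 to 2106 CPM in the first 3 and to 733 and 767 CPM in S_PXT1 and S_PXT1_K118R. They did not move as a unit. COL1A1 and COL3A1 supplied 100 and 73 of 188 counts in S_PXT1, and 91 and 95 of 195 in S_PXT1_K118R. MYH11 had 54 counts in PMSCV, 215 with WT, 1 with WT_K118R, 1 with S_PXT1 and 0 with S_PXT1_K118R. The genome used for alignment was not given in the sources used here. Where these reads come from, and their part in the values of the ER genes, was not tested, and in bulk RNA fewer cells of a type and less RNA per cell cannot be told apart.

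**Figure D1:**
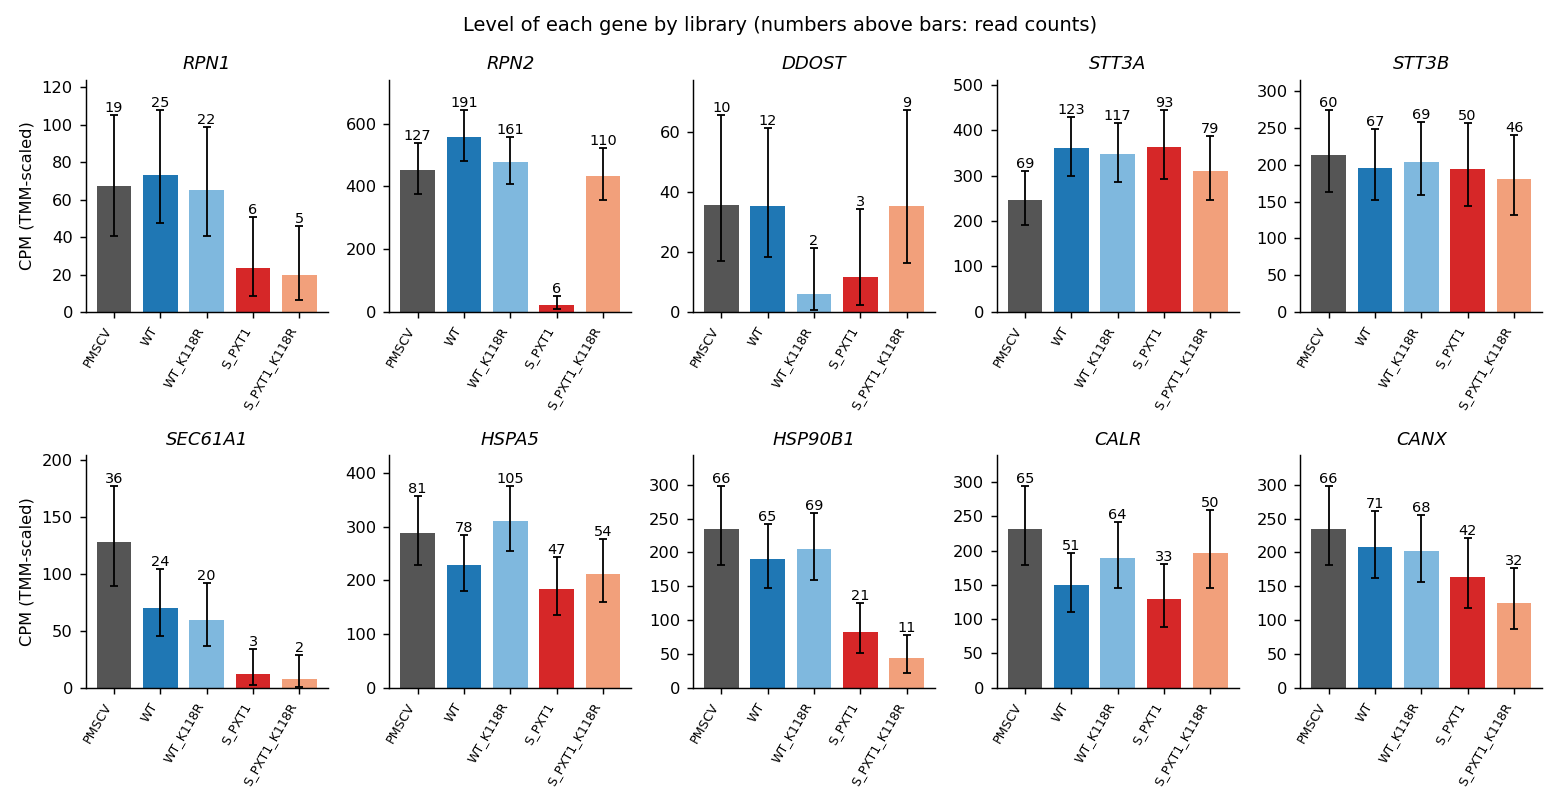
Level of each of the 10 genes (y axis, TMM-scaled CPM) in each of the 5 libraries (x axis), with the read count above each bar. Error bars are exact Poisson 95% intervals. RPN2 is near 0 with S_PXT1 alone, whereas SEC61A1, RPN1 and HSP90B1 are low in both S_PXT1 libraries.

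RPN2 (ENSG00000118705, chromosome 20, 37178410 to 37241623 in human coordinates of a build not given in the sources used here) encodes ribophorin II. It had 127 counts in PMSCV, 191 with WT, 161 with WT_K118R, 6 with S_PXT1 and 110 with S_PXT1_K118R. The corresponding levels were 452, 559, 477, 23.4 and 432 CPM. The counting interval in S_PXT1 ran from 8.58 to 50.9 CPM, far below the lowest bound of the other 4 libraries, 355 CPM in S_PXT1_K118R. Those 4 libraries lay close together, and none of the pairs compared among them had an interval of the ratio that left out 1. RPN2 was 19.3-fold lower in S_PXT1 than in PMSCV (8.63 to 53.6), and 18.5-fold higher in S_PXT1_K118R than in S_PXT1 (8.23 to 51.5).

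The other shared subunits did not follow RPN2. RPN1 (ENSG00000163902, chromosome 3, 128619970 to 128681075), ribophorin I, had 19 counts in PMSCV, 25 with WT and 22 with WT_K118R, against 6 with S_PXT1 and 5 with S_PXT1_K118R. It was thus low in both libraries that carry S_PXT1, 2.89-fold lower in S_PXT1 than in PMSCV (1.11 to 8.84) and 3.32-fold lower in S_PXT1_K118R than in WT_K118R (1.23 to 11.2). These last comparisons share no library. DDOST (ENSG00000244038, chromosome 1, 20651767 to 20661544), a non-catalytic subunit, rested on few reads: 10 counts in PMSCV, 12 with WT, 2 with WT_K118R, 3 with S_PXT1 and 9 with S_PXT1_K118R. Its lowest libraries were WT_K118R and S_PXT1, which share neither the construct nor the substitution. The ratio of WT over WT_K118R was 5.92 (1.32 to 54.5), and that of PMSCV over S_PXT1 was 3.04 with an interval that holds 1 (0.783 to 17.2).

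The catalytic subunits were the most even members. STT3B (ENSG00000163527, chromosome 3, 31532638 to 31637622) had 60 counts in PMSCV, 67 with WT, 69 with WT_K118R, 50 with S_PXT1 and 46 with S_PXT1_K118R, or 181 to 213 CPM. No pair of libraries compared differed beyond counting error. STT3A (ENSG00000134910, chromosome 11, 125591712 to 125625215) had 69, 123, 117, 93 and 79 counts in the same order, or 245 CPM in PMSCV and 311 to 363 CPM elsewhere. PMSCV was the lowest library, and STT3A was 1.48-fold higher in S_PXT1 (1.07 to 2.05) and 1.47-fold higher in WT (1.08 to 2.0). Both ratios use the same PMSCV library.

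Shares within a library do not depend on how libraries are scaled. RPN2 made up 43.4% to 45.7% of the summed counts of the 5 oligosaccharyltransferase members in 4 libraries and 3.80% in S_PXT1 (exact binomial interval 1.41 to 8.08%). Without RPN2 the other 4 summed to 562 CPM in PMSCV, 664 with WT, 622 with WT_K118R, 593 with S_PXT1 and 546 with S_PXT1_K118R. Each interval of these sums overlaps the others. STT3A supplied 53.5% of the STT3A and STT3B counts in PMSCV (44.5 to 62.3%) and 62.9% to 65.0% in the other 4, with overlapping intervals. RPN1 was 21.6%, 16.9% and 15.8% of the RPN1 and STT3A counts in PMSCV, WT and WT_K118R, against 6.06% with S_PXT1 and 5.95% with S_PXT1_K118R. The RPN1 intervals of PMSCV (13.5 to 31.6%) and S_PXT1 (2.26 to 12.7%) did not overlap, whereas that of WT (11.2 to 23.9%) overlapped both.

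**Figure D2:**
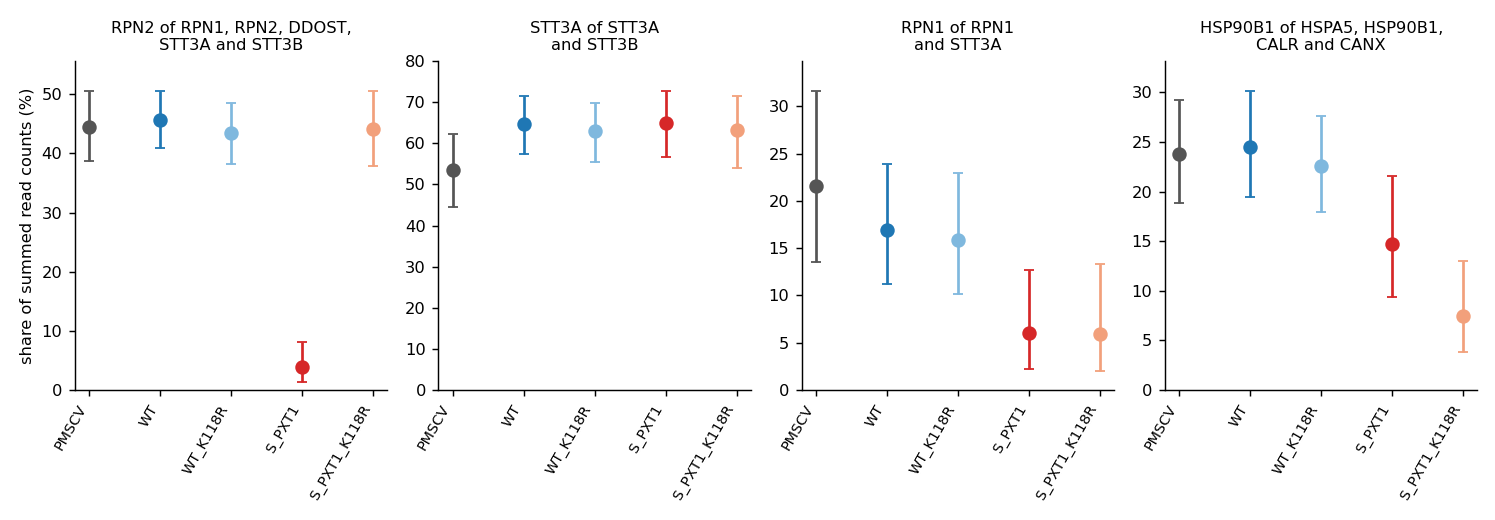
Share of summed read counts (y axis, percent) taken by a named gene within each library (x axis), with exact binomial 95% intervals. RPN2 takes 3.80% in S_PXT1 and 43.4% to 45.7% elsewhere, the STT3A intervals overlap, and RPN1 and HSP90B1 take smaller shares in both S_PXT1 libraries.

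SEC61A1 (ENSG00000058262, chromosome 3, 128051641 to 128071683), the pore of the translocon, had 36 counts in PMSCV, 24 with WT and 20 with WT_K118R, but 3 with S_PXT1 and 2 with S_PXT1_K118R. Both S_PXT1 libraries were at or under the floor of 3 counts, so no fold between them is given. SEC61A1 was 10.9-fold lower in S_PXT1 than in PMSCV (3.46 to 55.6) and 7.54-fold lower in S_PXT1_K118R than in WT_K118R (1.83 to 66.5). PMSCV was also higher than WT, by a ratio of 1.82 (1.06 to 3.20). Its paralog SEC61A2 had 4 counts in PMSCV, 10 with WT, 14 with WT_K118R, 7 with S_PXT1 and 8 with S_PXT1_K118R. SEC61A1 was accordingly 90.0% of the pair's counts in PMSCV, 70.6% with WT and 58.8% with WT_K118R, but 30% (6.67 to 65.2%) in S_PXT1 and 20% (2.52 to 55.6%) in S_PXT1_K118R, each of the last 2 out of 10 counts. How the counting divided reads between these similar genes was not tested.

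Among the chaperones HSP90B1 differed most. HSP90B1 (ENSG00000166598, chromosome 12, 103930107 to 103953645) had 66 counts in PMSCV, 65 with WT and 69 with WT_K118R, against 21 with S_PXT1 and 11 with S_PXT1_K118R. The first 3 libraries stood at 190 to 235 CPM and the last 2 at 81.9 and 43.2 CPM, and the intervals of the 2 sets did not overlap. It was 2.87-fold lower in S_PXT1 than in PMSCV (1.73 to 4.93) and 4.73-fold lower in S_PXT1_K118R than in WT_K118R (2.49 to 9.91). Its share of the 4 chaperone members was 23.7%, 24.5% and 22.5% in PMSCV, WT and WT_K118R, 14.7% (9.33 to 21.6%) in S_PXT1 and 7.48% (3.79 to 13.0%) in S_PXT1_K118R.

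HSPA5 (ENSG00000044574, chromosome 9, 125234853 to 125241330), the sensor-bound Hsp70 of the ER lumen, had 81 counts in PMSCV, 78 with WT, 105 with WT_K118R, 47 with S_PXT1 and 54 with S_PXT1_K118R. In order of level these were 311 CPM in WT_K118R, 288 in PMSCV, 228 with WT, 212 with S_PXT1_K118R and 183 with S_PXT1, and each interval overlaps that of its neighbour in the order. HSPA5 was 1.57-fold lower in S_PXT1 than in PMSCV (1.08 to 2.30) and 1.47-fold lower in S_PXT1_K118R than in WT_K118R (1.05 to 2.07). WT_K118R was 1.36-fold above WT (1.01 to 1.85).

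The lectin chaperones differed less than HSP90B1 with S_PXT1 over PMSCV and with S_PXT1_K118R over WT_K118R. CALR (ENSG00000179218, chromosome 19, 12938578 to 12944489), the soluble one, had 65 counts in PMSCV, 51 with WT, 64 with WT_K118R, 33 with S_PXT1 and 50 with S_PXT1_K118R. It was 1.80-fold lower in S_PXT1 than in PMSCV (1.16 to 2.82), but S_PXT1_K118R and WT_K118R were level, with a fold of 1.04 (0.701 to 1.52). CANX (ENSG00000127022, chromosome 5, 179678628 to 179730925), the membrane-bound one, had 66, 71, 68, 42 and 32 counts in the same order. Here the lower library was S_PXT1_K118R, 1.60-fold below WT_K118R (1.04 to 2.52), while the fold of S_PXT1 over PMSCV was 0.698 (0.462 to 1.04). The 4 chaperones together summed to 989 CPM in PMSCV, 775 with WT, 907 with WT_K118R, 557 with S_PXT1 and 578 with S_PXT1_K118R. The sum was 1.77-fold lower in S_PXT1 than in PMSCV (1.44 to 2.19) and 1.57-fold lower in S_PXT1_K118R than in WT_K118R (1.28 to 1.92). It was also 1.28-fold lower in WT than in PMSCV (1.07 to 1.52), and 1.39-fold lower in S_PXT1 than in WT (1.13 to 1.72). Of the marker lists, the plasma cell list was at 2379 CPM in PMSCV, 1322 with WT and 154 with WT_K118R. It was at 54.6 with S_PXT1 and 35.4 with S_PXT1_K118R. In both S_PXT1 libraries epithelial markers were at 0, and fibroblast and smooth muscle markers were at 733 and 767 CPM. The part of such reads in the chaperone sum was not tested.

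The members were then set beside all genes. All 10 passed the filter of a mean of 1 CPM, as did 13352 genes in all, and a gene was called lower or higher at a 2-fold difference on the log2(CPM + 1) scale. Since 2-fold differences are commoner among genes with few reads, a second background holds the 2373 genes with a mean count between those of DDOST (7.20) and RPN2 (119.0), a choice made after seeing the data. With S_PXT1 over PMSCV 5 members were lower (RPN1, RPN2, DDOST, SEC61A1 and HSP90B1) and 0 higher. Of all genes 43.8% were lower and 8.64% higher, and of the genes in the members' range 23.5% and 4.21%. The members' median log2 ratio was -1.17, against -0.56 over all genes and -0.10 in the range. RPN2 was chosen by this contrast, so its place in the count says nothing, and the other 9 had a median of -0.84.

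With S_PXT1 over WT the same 5 members were lower and 0 higher, against 42.5% and 9.02% of all genes and 21.9% and 3.83% of those in the range. This comparison uses the S_PXT1 library again and is not a separate measurement. The median of the members was -0.77, or -0.34 without RPN2, against -0.48 over all genes and -0.17 in the range. With S_PXT1_K118R over WT_K118R, which shares no library with S_PXT1 over PMSCV or S_PXT1 over WT, RPN1, SEC61A1 and HSP90B1 were lower and DDOST was higher. Of all genes 44.0% were lower and 8.94% higher, and in the range 22.2% and 4.13%. The members' median of -0.36 lay near that of all genes, -0.49, and below that of the range, -0.17. The 3 to 5 of 10 members called lower in these comparisons thus stand beside 42.5% to 44.0% of all genes and 21.9% to 23.5% of genes with like counts, and nothing particular to the members is read from them.

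With WT over PMSCV 0 members were called, against 23.2% lower and 20.3% higher over all genes and 5.73% and 5.60% in the range. The ratios ran from -0.86 for SEC61A1 to 0.55 for STT3A, and their median was -0.15. The counting interval left out 1 for SEC61A1, CALR and STT3A. With WT_K118R over WT only DDOST was called, as lower, against 20.9% lower and 19.2% higher over all genes and 6.15% and 5.01% in the range, and the median was -0.05. With S_PXT1_K118R over S_PXT1 RPN2 and DDOST were higher and 0 members lower, against 15.2% higher and 17.6% lower over all genes and 9.02% and 10.3% in the range. The other 8 lay between -0.91 for HSP90B1 and 0.61 for CALR.

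**Figure D3:**
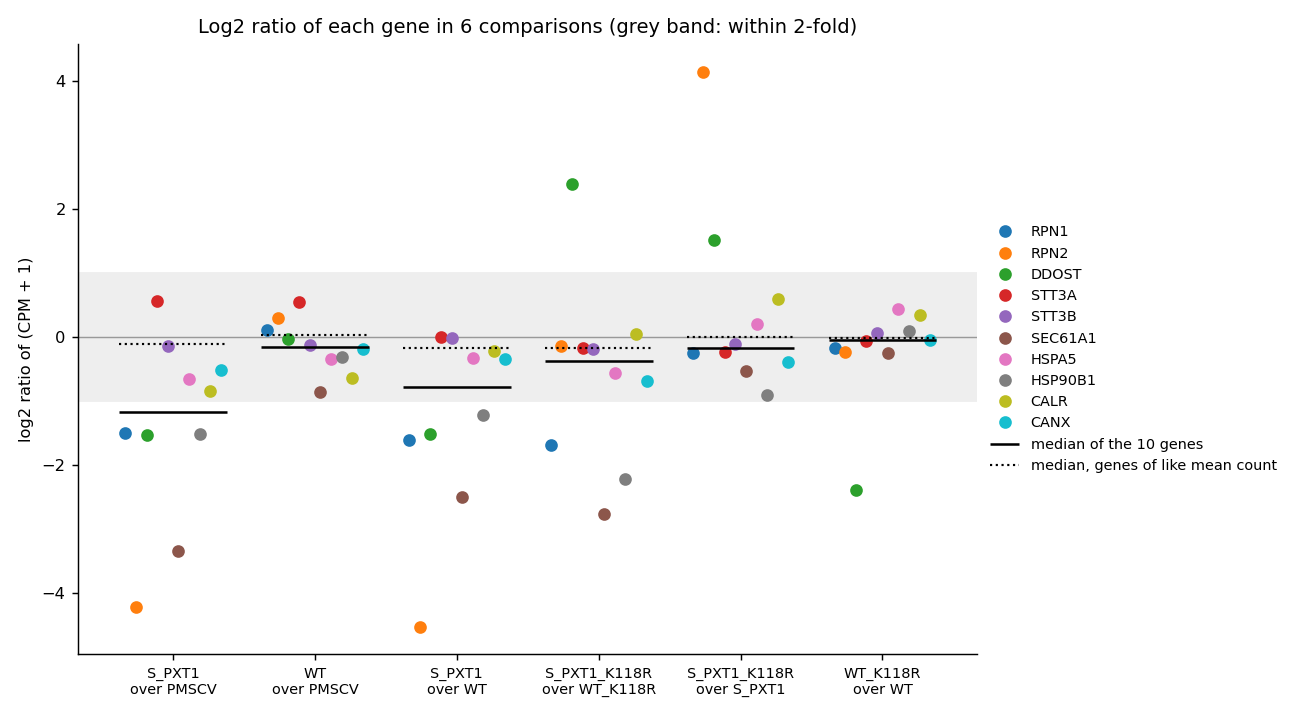
Log2 ratio of (CPM + 1) of each gene (coloured points, y axis) in the 6 comparisons (x axis). Solid lines are medians of the 10 genes, dotted lines medians of the genes with like mean counts, and the grey band holds ratios within 2-fold. RPN2 lies at -4.21 with S_PXT1 over PMSCV and at -0.14 with S_PXT1_K118R over WT_K118R, while SEC61A1, RPN1 and HSP90B1 lie below the band in both.

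Among themselves the members fell into different patterns over the 5 libraries. Likeness was measured as the root mean square difference of log2(CPM + 1) after centring each gene on its mean. The most alike pairs were HSPA5 and CALR at 0.21, STT3B and HSPA5 at 0.23, STT3B and CANX at 0.24, HSPA5 and CANX at 0.25, STT3A and STT3B at 0.26 and RPN1 and HSP90B1 at 0.26. These are descriptions over 5 libraries that share their scaling. Genes nearest to RPN2 by the same measure, among 1545 symbols averaging 20 counts or more, were MARCHF5 (0.19), a ubiquitin ligase of mitochondria, TUBGCP4 (0.22), a subunit of the gamma-tubulin ring complex, DNAJC8 (0.38), a J-domain protein of the spliceosome, SPAG7 (0.47), MEX3C (0.51), an RNA-binding ubiquitin ligase, and TBL1XR1 (0.63), a corepressor subunit. MARCHF5 had 30 counts in PMSCV, 30 with WT, 33 with WT_K118R, 1 with S_PXT1 and 23 with S_PXT1_K118R. DNAJC8 had 76, 137, 94, 2 and 85 counts in the same order. These genes were picked by likeness to RPN2, so their low counts in S_PXT1 follow from the choice.

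Genes low in a single library were found in all 5. Counted as at least 5-fold below each of the other 4 libraries, they were 0.777% of the 1545 genes in S_PXT1 (12 genes, RPN2 among them) and 1.04% in S_PXT1_K118R (16 genes). They were 0.324% in PMSCV, 0.194% in WT and 0.324% in WT_K118R. In S_PXT1, RPN2 lay 18.5-fold, MEX3C 8.12-fold and ILK 5.62-fold below the next lowest library. RBM4, MARCHF5 and TUBGCP4 had 1 count there, DNAJC8, SPAG7 and ELAVL1 had 2, and TBL1XR1 had 3. SLC25A4 and BCAP31, with 0 counts, were at least 6.33-fold and 5.83-fold lower. BCAP31, an ER membrane protein that escorts cargo, had 23 to 38 counts in the other libraries.

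**Figure D4:**
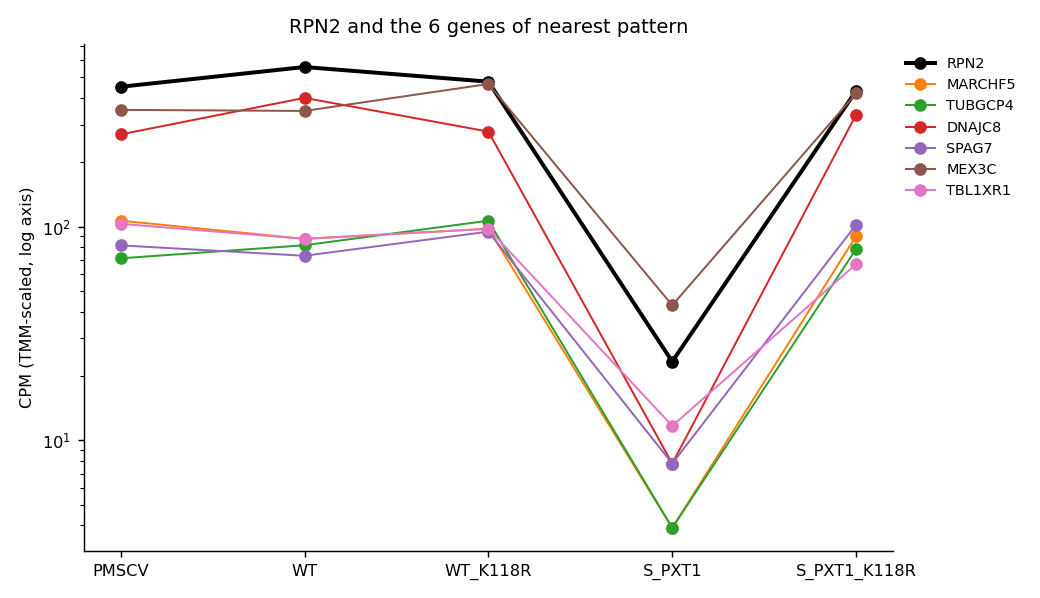
Level (y axis, TMM-scaled CPM on a log axis) of RPN2 (black) and of the 6 genes nearest to its pattern in the 5 libraries (x axis). Each line is a gene. All have their lowest point in S_PXT1, which follows from choosing them by likeness to RPN2. The 6 genes have 1 to 11 counts there.

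Reads of overlapping gene models were looked up. The only model that overlaps RPN2, MROH8 on the opposite strand, had 0 counts in all 5 libraries. Among the other members 7 overlap another model, with at most 5 counts in any library on the same strand (CHEK1, beside STT3A) and at most 13 on the opposite strand (RUVBL1, beside SEC61A1). RUVBL1 had 13 counts in PMSCV, 11 with WT, 7 with WT_K118R, 5 with S_PXT1 and 4 with S_PXT1_K118R. A strand setting was not given in the sources used here, so reads of such pairs cannot be told apart.

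The wider pathway was read from 10 lists with 116 genes in all, of which 112 entered. With S_PXT1 over PMSCV 51 of the 112 were lower and 5 higher, or 45.5% and 4.46%, close to the shares of all genes given above. With S_PXT1_K118R over WT_K118R 48 were lower and 6 higher, or 42.9% and 5.36%, beside 44.0% and 8.94% of all genes. With WT over PMSCV 16 were lower and 15 higher, or 14.3% and 13.4%, beside 23.2% and 20.3% of all genes. The summed counts of 5 of the 10 lists were lower beyond counting error in each of the first 2 comparisons, but in the first this includes the oligosaccharyltransferase list, which is not lower beyond counting error without RPN2. The chaperone, glycan trimming and unfolded protein response lists were lower in both. Over all genes the median log2 ratio was -0.56 and -0.49 in these comparisons, and -0.10 and -0.17 in the members' range. No such folds were taken over lists of other genes, so nothing particular to the ER lists is read from this count.

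The oligosaccharyltransferase list of 12 summed to 240 counts in S_PXT1 against 397 in PMSCV, a fold of 0.663 (0.562 to 0.780). RPN2, chosen for its low count in S_PXT1, supplied 6 and 127 of these counts, and without it the fold was 0.950 (0.794 to 1.14). Of the 12, with RPN2 among them, 7 were lower and 0 higher, beside 43.8% and 8.64% of all genes. Among the list's 5 genes averaging 20 counts or more, 1 was lower, RPN2 itself. With S_PXT1_K118R over WT_K118R the fold of the 12 was 0.891 (0.772 to 1.03). There 4 were lower and 1 higher, beside 44.0% and 8.94% of all genes. With S_PXT1 over PMSCV its median log2 ratio was -1.51, or -0.26 with genes at 0 counts set to the floor. OST4, a small subunit of the complex, had 63 counts in PMSCV, 77 with WT, 52 with WT_K118R, 48 with S_PXT1 and 42 with S_PXT1_K118R. TUSC3, a subunit of STT3B complexes, had 28, 45, 32, 33 and 29 in the same order. Neither was called in any of the 6 comparisons. AGBL5, on the strand opposite OST4, had 15 to 30 counts. The translocon list of 11 had a summed fold of 0.707 (0.549 to 0.906) with S_PXT1 over PMSCV, with 5 lower and 0 higher beside 43.8% and 8.64% of all genes. Its median log2 ratio there was -0.45, or 0.12 with zeros at the floor. Of its 2 genes averaging 20 counts or more, 0 were lower. With S_PXT1_K118R over WT_K118R the fold was 0.836 (0.660 to 1.05), with 3 lower and 2 higher beside 44.0% and 8.94% of all genes. SEC63, which works with HSPA5 at the channel, had 32 to 50 counts in every library, and SSR3, a translocon-associated subunit, 16 to 32.

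The list of 14 chaperones and co-chaperones had 5 lower and 1 higher with S_PXT1 over PMSCV and a summed fold of 0.761 (0.654 to 0.884). With S_PXT1_K118R over WT_K118R it had 7 lower and 0 higher and a fold of 0.772 (0.666 to 0.893). All genes called lower were 43.8% and 44.0% in these comparisons. Of the list's 7 genes averaging 20 counts or more, 1 was lower in each comparison. Its medians were -0.73 and -0.84, or -0.54 and -0.61 with zeros at the floor. DNAJC10, a reductase with a J domain, went the other way, with 46 counts in PMSCV, 54 with WT, 74 with WT_K118R, 78 with S_PXT1 and 74 with S_PXT1_K118R. HYOU1, an exchange factor of HSPA5, had 54, 75, 57, 39 and 53 counts in the same order, with no fold among the comparisons beyond counting error, and DNAJC1 had 18 to 28.

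Among the 11 disulfide isomerases and oxidases 6 were lower and 0 higher with S_PXT1 over PMSCV, but the summed fold was 0.934 (0.809 to 1.08), in which PPIB supplied 222 of 357 counts. With S_PXT1_K118R over WT_K118R 5 were lower and 0 higher, and the summed fold was 0.753 (0.651 to 0.869). Of all genes 43.8% and 44.0% were lower in these comparisons, so nothing particular to the list is read from the calls. P4HB, a protein disulfide isomerase, had 34 counts in PMSCV, 39 with WT, 44 with WT_K118R, 13 with S_PXT1 and 38 with S_PXT1_K118R. It was thus low in S_PXT1 alone, as RPN2 was, but 2.39-fold below PMSCV (1.23 to 4.93). PDIA3, the isomerase that partners CALR and CANX, had 27, 27, 26, 11 and 10 counts in the same order, low in both S_PXT1 libraries as HSP90B1 was. TXNDC5 had 0 counts in S_PXT1_K118R and 21 to 53 elsewhere, but it shares its strand and locus with the read-through model BLOC1S5-TXNDC5, which had 7 counts there.

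GANAB, the glucosidase subunit that trims the glycan for CALR and CANX, had 28 counts in PMSCV, 32 with WT, 40 with WT_K118R, 13 with S_PXT1 and 13 with S_PXT1_K118R. Its list of 13 had a summed fold of 0.785 (0.632 to 0.971) with S_PXT1 over PMSCV, with 4 lower and 0 higher. With S_PXT1_K118R over WT_K118R the fold was 0.711 (0.564 to 0.894), with 6 lower and 1 higher. The list's medians were -0.83 and -0.94, or -0.14 and -0.13 with zeros at the floor. Of its 2 genes averaging 20 counts or more, 0 and 1 were lower. Of all genes 43.8% and 44.0% were lower in these comparisons. LMAN1, a cargo lectin, had 69 to 100 counts throughout. The 11 sensors and factors of the unfolded protein response had a summed fold of 0.582 (0.427 to 0.788) with S_PXT1 over PMSCV and 0.591 (0.429 to 0.804) with S_PXT1_K118R over WT_K118R. In the first 4 were lower and 0 higher, and in the second 5 and 1, beside 43.8% and 44.0% of all genes lower. The list's 1 gene averaging 20 counts or more, ATF4, was called in neither. ATF4, a transcription factor of the stress response, had 36 counts in PMSCV, 28 with WT, 27 with WT_K118R, 17 with S_PXT1 and 14 with S_PXT1_K118R.

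Of the lists that act before and after these steps, 2 had no summed fold beyond counting error in any of the 6 comparisons. The signal recognition particle list of 8 had a fold of 0.876 (0.70 to 1.09) and the signal peptidase list of 5 a fold of 0.982 (0.712 to 1.35) with S_PXT1 over PMSCV, and 0.880 (0.704 to 1.1) and 1.08 (0.792 to 1.47) with S_PXT1_K118R over WT_K118R. Each sum rested largely on a single gene. SRPRA, a receptor subunit, had 97 to 137 counts, with 107 of its list's 147 in S_PXT1 and 100 of 184 in PMSCV. SPCS3, a signal peptidase subunit, had 57 to 73, with 57 of 77 in S_PXT1 and 58 of 86 in PMSCV. With S_PXT1 over PMSCV 3 genes were lower and 0 higher in the first list, and 3 and 1 in the second. Of all genes 43.8% were lower. The median log2 ratios were -0.90 and -1.27, or -0.79 and 0.11 with zeros at the floor. SRP72 was lowest in WT, with 10 counts against 21 to 39. The 12 ER-associated degradation genes had a fold of 0.979 (0.786 to 1.22) with S_PXT1 over PMSCV. There 6 were lower and 1 higher, with a median log2 ratio of -1.14, or -0.58 with zeros at the floor. With S_PXT1_K118R over WT_K118R the fold was 0.628 (0.493 to 0.794), with 7 lower and 0 higher. Of all genes 43.8% and 44.0% were lower in these comparisons. With S_PXT1_K118R over S_PXT1 the fold was 0.672 (0.521 to 0.865). DERL1, a retrotranslocation factor, supplied 64 of the list's 159 counts in S_PXT1, 21 of 178 in PMSCV and 24 of 106 in S_PXT1_K118R. The folds that use S_PXT1 thus rest in part on this gene, and folds without it were not computed. DERL1 was 3.34-fold higher in S_PXT1 than in PMSCV (2.01 to 5.76), and had 80 counts with WT and 68 with WT_K118R. VCP, the ATPase that extracts substrates, had 41 counts in PMSCV, 40 with WT, 39 with WT_K118R, 25 with S_PXT1 and 20 with S_PXT1_K118R. The lipid-linked oligosaccharide genes were barely covered, with 37 to 94 counts over 19 genes in S_PXT1, PMSCV and WT, and DPAGT1, the first enzyme of that path, supplied 21 to 39 of them. Their fold was 0.525 (0.349 to 0.775) with S_PXT1 over WT, 1.58 (1.11 to 2.28) with WT over PMSCV and 0.828 (0.525 to 1.29) with S_PXT1 over PMSCV.

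**Figure D5:**
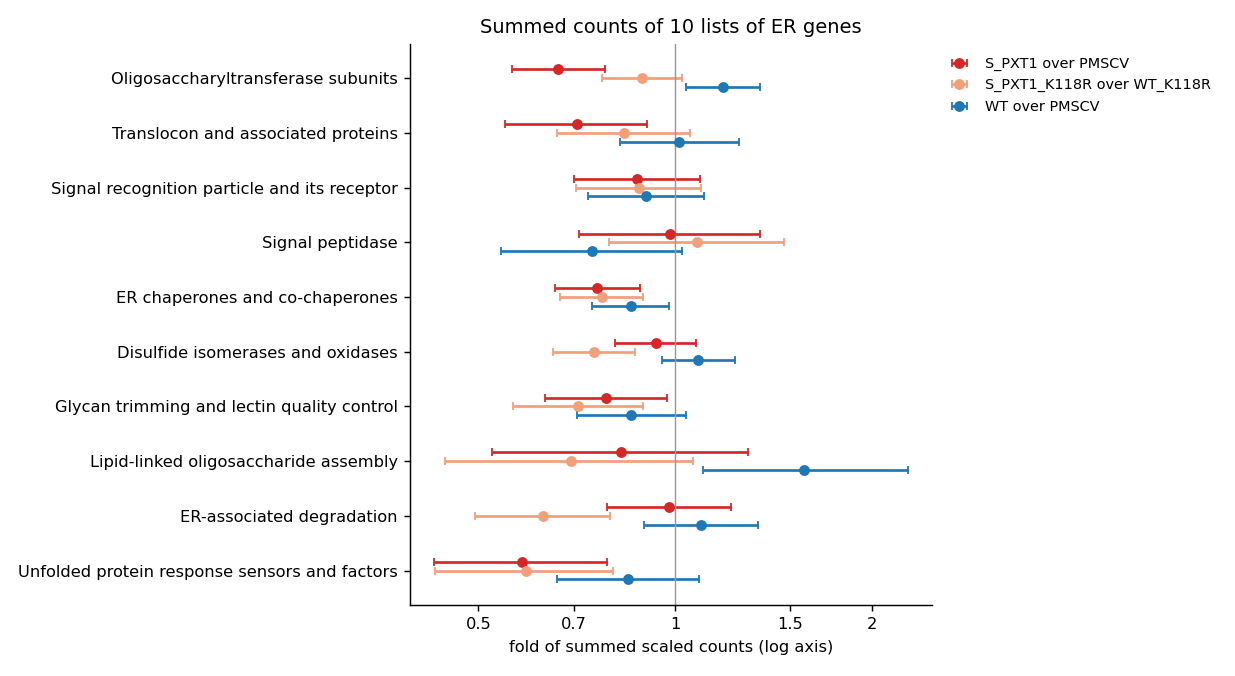
Fold of the summed scaled counts of each of 10 lists (points, log x axis) with exact 95% intervals, for S_PXT1 over PMSCV, S_PXT1_K118R over WT_K118R and WT over PMSCV. The unfolded protein response list lies at 0.582 and 0.591 in the first 2, and the signal recognition particle list has all 3 intervals across 1.

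The element shown at the start was also looked up across the lists. Promoter windows matched 89 of the 116 genes by symbol, and 11 of them (12.4%) held it: the 4 chaperone members, PDIA6, SYVN1, DNAJC3, CRELD2, ERO1B, DERL3 and ALG12. Their summed levels were 1280 CPM in PMSCV, 1041 with WT and 1197 with WT_K118R, against 764 with S_PXT1 and 786 with S_PXT1_K118R. The 4 chaperone members supplied 278 of 360 counts in PMSCV, 143 of 196 with S_PXT1 and 147 of 200 with S_PXT1_K118R. This sum thus largely repeats the chaperone sum given above. The 78 matched genes without it summed to 4687, 4890 and 4715 CPM against 3669 and 3687. Both sums were lower in the S_PXT1 libraries, and the difference between them was not tested. By gene, 9 with the element and 77 without it passed the filter. Called lower were 4 of the 9 and 39 of the 77 with S_PXT1 over PMSCV, beside 43.8% of all genes. The median log2 ratios there were -0.84 and -1.09. With S_PXT1 over WT 2 and 34 were lower, beside 42.5% of all genes. Called higher were 0 and 2 in each comparison, beside 8.64% and 9.02% of all genes. With S_PXT1_K118R over WT_K118R 5 of the 9 and 31 of the 77 were lower, and 0 and 6 higher, beside 44.0% and 8.94% of all genes. Among the 5, CRELD2 had 3 counts in WT_K118R and 0 in S_PXT1_K118R, ERO1B 1 and 0, and DNAJC3 3 and 1. These counts lie within the floor of 3 counts, so nothing is read from the order of these sets. PDIA6, a disulfide isomerase, had 26 counts in PMSCV, 17 with WT, 28 with WT_K118R, 3 with S_PXT1 and 7 with S_PXT1_K118R. SYVN1, a ubiquitin ligase of ER-associated degradation, was even at 44 to 69 counts.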

How the data were processed

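RNA sequencing libraries of 5 Ba/F3 cultures were analysed from the authors' deposited table, which gives raw read counts and FPKM values (scaled by gene length and library size) per gene, per the file headers. Per the submitters' processing notes cutadapt 1.9, HISAT2 2.2.1 and FastQC were used. Counting tool, strand setting, build and annotation: not given in the sources used here. Columns without a library numbered 0. TMM factors (edgeR 4.0.16, R 4.3.3) scaled the counts over all 5 libraries. Ratios were taken on log2(CPM + 1) for genes with a mean of at least 1 CPM. The added 1 CPM understates differences of low genes with counts in both libraries. Zeros were not held to the floor of 3 counts in the calls. SEC61G, with 1 count in PMSCV and 0 in S_PXT1, was thus called lower at a log2 ratio of -2.19. Folds used scaled counts, with the exact 95% interval of a ratio of 2 counts. Levels carry exact Poisson intervals and shares exact binomial (Clopper-Pearson) intervals. All intervals and floors cover counting error only, since reads were not tied to molecules. A fold against 0 counts was taken against 3 counts in that library. A lower or higher call means 2-fold, with no test, in 6 comparisons. The ratio, call and interval were tested on simulated data. The members and lists were chosen with earlier results of these data known. Named genes were the members, up to 3 genes per list with the largest ratio averaging 20 counts or more, and the genes nearest to RPN2, or lowest in S_PXT1 alone. Other list members named were chosen after their values were seen. A marker of the B-lineage list is not reported here. Alternatives were pseudocounts of 0.1 and 5 CPM, DESeq2 1.42.0 size factors, total counts, FPKM, summed overlapping models, no filter or 5 CPM, thresholds of 1.5-fold and 3-fold and, added after seeing the data, the members and the oligosaccharyltransferase list without RPN2 and a background of genes in the members' range of mean count.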

Additional observations from a re-analysis of the deposited data

Results flagged for a closer look

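Among members with a 2-fold K118R ratio in either background, RPN2 and DDOST had ratios of opposite sign in the S_PXT1 and WT backgrounds, and this difference was not tested, since each background holds 1 library with and 1 without the substitution. For RPN2 the log2 ratio was 4.15 in the S_PXT1 background and -0.23 in the WT background, a difference of 4.38. RPN2 was chosen for its low count in S_PXT1, which sets this difference. For DDOST the log2 ratio was 1.52 in the S_PXT1 background (9 counts against 3) and -2.38 in the WT background (2 counts against 12), a difference of 3.90.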

How the results depend on the processing

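No paired analysis was possible because each group holds 1 library, and leaving out replicates did not apply. Of 124 values recomputed for the counts and medians of the members and for RPN2, 115 stayed within the limits set. The limits were 1.5 times for a count and the counting interval of the ratio for RPN2 or a single member. For a median the limit was a shift of 0.153 to 0.220, by comparison, set by the width of the log2 counting interval of the members' summed fold. All 360 values of single members stayed within their limits, although 6 of them changed sign: the uncalled ratios near 0 of RPN1 in WT over PMSCV, STT3B in S_PXT1 over WT and STT3A in WT_K118R over WT. The other 9 follow. At a 3-fold threshold 2 members were called in S_PXT1 over PMSCV, 3 in S_PXT1 over WT and 1 in S_PXT1_K118R over S_PXT1. At a 1.5-fold threshold 2 were called in WT over PMSCV and 4 in S_PXT1_K118R over S_PXT1. Without RPN2 the median log2 ratio of the members was -0.84 in S_PXT1 over PMSCV, -0.34 in S_PXT1 over WT and -0.55 in S_PXT1_K118R over WT_K118R, and 1 member was called in S_PXT1_K118R over S_PXT1. Fewer members and a moved threshold are the construction of these alternatives. The ratio of the next lowest library to S_PXT1 for RPN2 was 18.48 to 18.97 under the 4 alternatives run. Depth limits DDOST, SEC61A1 and RPN1 most, with 2 to 36 counts per library.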
